A study of Mus musculus with 37 samples.

Results

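Neonatal rat ventricular myocytes (NRVM) kept for 24 h in ENPP1+ATP conditioned medium were compared with NRVM kept in vehicle conditioned medium, across all genes of the rat count table. The comparison used the 3 libraries titled as ENPP1 plus ATP and the 3 titled NC, whose treatment label reads vehicle, together 6 of the 37 samples of the study. The study examined how ATP released in the injured heart, and the enzyme ENPP1 that degrades it, change heart muscle cells and the nonmyocytes around them. Its other samples were immortalized mouse cardiac fibroblasts (CFs), single cells of injured mouse hearts, and NRVM in ENPP1, ATP or AMP medium. Both groups were wild-type Sprague-Dawley cells that had been plated sparsely in serum-containing high glucose DMEM and then held in serum-free DMEM with insulin, transferrin and selenium before the medium was changed. Each medium was conditioned medium (MCndM), collected from other NRVM that had been given vehicle, ENPP1 protein, ATP, both or AMP, and the NRVM sequenced here were its recipients. The organism field of GEO names the mouse for these libraries, whereas the labels of cell type and strain name the rat and the table carries rat gene symbols. The study's statement on statistics calls its n biological replicates, while the labels do not say whether the 3 libraries of a group came from separate cultures or litters, so the p-values measure the spread between these libraries.

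ENPP1 is an ectoenzyme that splits extracellular ATP into AMP and pyrophosphate. AMP can be converted to adenosine at the cell surface by the product of Nt5e, and ATP and adenosine signal through purinergic receptors, so that a single added nucleotide can reach a cell by several routes. Ventricular myocytes obtain most of their energy from fatty acids and oxidative phosphorylation, and in the newborn they still express fetal genes such as Myh7 and the natriuretic peptides. Cultures prepared from neonatal ventricles commonly also hold fibroblasts, endothelial cells and smooth muscle cells.

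Each library held between 13481389 and 15347841 counted reads, 13481389 to 14937081 in vehicle and 13980922 to 15347841 in ENPP1+ATP, and 13461 genes had enough counts to be tested. Defining myocyte transcripts were abundant in all 6 libraries, with Myh7, the slow ventricular myosin heavy chain, at 14980, 13620 and 14450 CPM (counts scaled to a common library size) in vehicle and 10620, 11180 and 10480 CPM in ENPP1+ATP. The 17 cardiomyocyte markers tested summed to 54670, 52140 and 53750 CPM in vehicle and to 48420, 49230 and 46840 CPM in ENPP1+ATP, and the sums of the groups did not overlap. Col1a1 at 15740, 16790 and 16150 CPM in vehicle showed that collagen-producing cells were present too. Markers of endothelial cells, macrophages and glia were low, with summed levels in vehicle of 49.1 to 57.8, 9.70 to 10.9 and 21.8 to 24.3 CPM. Reads of mitochondrial genes made up 8.14% to 8.35% of a vehicle library and 10.9% to 11.1% of an ENPP1+ATP library. AMP replicate 3 stood apart from the other libraries on the third principal component, and comparisons with AMP are therefore given with and without it.

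NRVM in ENPP1+ATP medium differed from NRVM in vehicle at 7538 of 13461 genes tested, or 56%. Most tested genes of the p53 target, oxidative phosphorylation and fatty acid oxidation lists rose, as did 20 of 38 interferon-stimulated genes, and most genes of the collagen, integrated stress response, ribosomal protein and cholesterol synthesis lists fell, as did the natriuretic peptide genes Nppa and Nppb. Of all genes tested, 3846 rose (28.6%) and 3692 fell (27.4%) at an edgeR adjusted p under 0.05, and the median log2 fold change over all genes was 0.00788. The typical change was small, with a median absolute log2 fold change of 0.43 among the genes past the threshold, and 1292 genes (9.6%) changed by at least 1 on the log2 scale, 536 upward (3.98%) and 756 downward (5.62%). The 3 ENPP1+ATP and the 3 vehicle libraries did not overlap at 8384 genes (62.3%). On the first principal component, which held 60.4% of the variance of the 15 NRVM libraries, vehicle lay between 41.08 and 44.21 and ENPP1+ATP between -27.24 and -23.01. NRVM in ENPP1 medium without ATP lay beside vehicle on that axis, between 41.37 and 42.84, and edgeR called 0 genes between ENPP1 and vehicle, with 693 genes at an unadjusted p under 0.05, while DESeq2 called 1, with 489 at an unadjusted p under 0.05. Because so large a share of genes passed the threshold, a gene group is read below by its direction and size against the 28.6% and 27.4% of all genes.

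**Figure D1:**
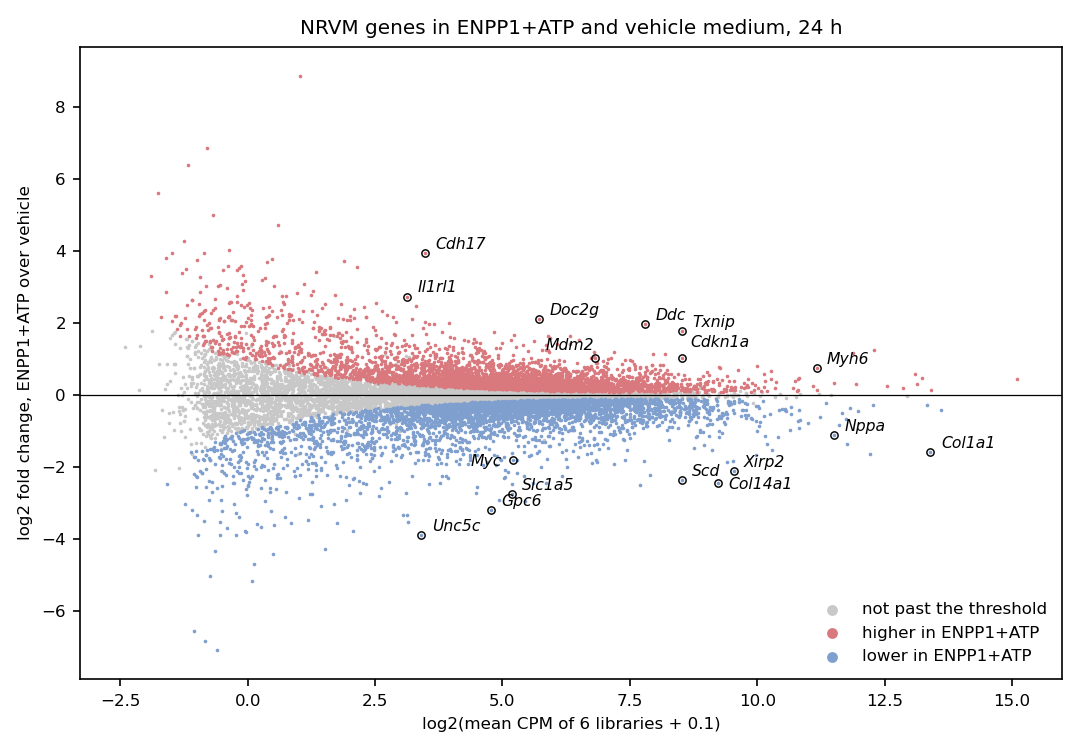
Log2 fold change of ENPP1+ATP over vehicle (vertical) against the mean level of the 6 libraries as log2(CPM + 0.1) (horizontal), 1 point for each of 13461 genes; red marks the 3846 genes that rose, blue the 3692 that fell, grey the rest, and 17 genes named in the text are ringed. Changed genes lie on both sides of 0 at all levels, with Cdh17 among the highest and Unc5c, Gpc6 and Slc1a5 among the lowest of the named genes.

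Single genes were ranked among characterised genes whose groups did not overlap and whose mean log2 CPM was at least 2. Within these limits the largest rise was that of Cdh17, a cadherin known from the intestine, which went from 1.58, 1.102 and 1.29 CPM in vehicle to 21.2, 17.4 and 23.3 CPM in ENPP1+ATP (log2 fold change 3.95 ± 0.16 (SE), edgeR adjusted p = 3.24e-24). Il1rl1, the receptor for interleukin 33, stood at 2.34, 1.72 and 2.74 CPM in vehicle and 14.9, 14.4 and 15.9 CPM in ENPP1+ATP (2.74 ± 0.16, edgeR adjusted p = 1.19e-18). Genes of this kind were chosen among those whose groups did not overlap, so that separation is no further result. Ddc, the decarboxylase that makes dopamine and serotonin from their amino acid precursors, was the most abundant of the 12 highest, at 87.9, 94.9 and 87.7 CPM in vehicle and 365, 359 and 345 CPM in ENPP1+ATP (1.98 ± 0.055, edgeR adjusted p = 2.59e-24). Doc2g, a C2 domain protein, rose with it from 19.2, 21.2 and 19.0 to 87.0, 86.4 and 82.2 CPM (2.10 ± 0.066, edgeR adjusted p = 2.71e-28). The other 8 of the 12 were Sept4, Klhdc7a, Fosb, Ky, Tlr5, Ptprv, Gbp2 and C3ar1, with log2 fold changes between 1.99 and 2.48. They included receptors of innate immunity (Tlr5 for flagellin, C3ar1 for complement C3a), the interferon-induced GTPase Gbp2, and Ptprv, a phosphatase known in mice as a p53 target.

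At the other end, Unc5c, a receptor for the guidance cue netrin, fell from 17.7, 18.8 and 22.7 CPM in vehicle to 1.27, 1.09 and 1.62 CPM in ENPP1+ATP (log2 fold change -3.89 ± 0.19 (SE), edgeR adjusted p = 3.98e-21). Gpc6, a glypican that carries heparan sulfate at the cell surface, fell from 50.7, 47.9 and 48.0 to 4.44, 5.94 and 5.75 CPM (-3.18 ± 0.15, edgeR adjusted p = 1.62e-13). The 12 lowest genes were likewise chosen among those whose groups did not overlap, so that their separation is no further result. The amino acid transporters Slc1a5, which carries glutamine, and Slc7a11, which imports cystine, stood among the 12 lowest as well, Slc1a5 at 60.6, 65.2 and 63.0 CPM in vehicle and 9.72, 9.52 and 8.79 CPM in ENPP1+ATP (-2.75 ± 0.097, edgeR adjusted p = 1.42e-23). Slc7a11 fell from 38.4, 39.5 and 38.0 to 5.99, 5.30 and 6.40 CPM (-2.71 ± 0.11, edgeR adjusted p = 6.6e-25). Col11a1, a minor fibrillar collagen, and Ptx3, a secreted pentraxin, each fell by 2.92 on the log2 scale. The remaining 6 were Epha8, Asic1, Bdkrb2, Tlcd3b, Sorcs1 and Nrk, with log2 fold changes between -3.53 and -2.56, among them an ephrin receptor, an acid-sensing ion channel and the bradykinin B2 receptor.

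Enzymes that act on extracellular nucleotides changed in part. Enpp1 itself did not pass the threshold, at 62.0, 53.8 and 59.0 CPM in vehicle and 53.7, 54.0 and 53.1 CPM in ENPP1+ATP (log2 fold change -0.12 ± 0.063 (SE), edgeR adjusted p = 0.0975), and the groups overlapped. It passed, at a log2 fold change of -0.18, only when vehicle replicate 2 was left out. Nt5e, whose product CD73 turns AMP into adenosine, fell from 10.5, 9.92 and 12.3 to 7.11, 6.58 and 8.53 CPM (-0.55 ± 0.17, edgeR adjusted p = 0.00488). Among the ectonucleotidase and pyrophosphate genes, 8 of 18 tested members rose and 5 fell, with a median log2 fold change of 0.14. Entpd3, which degrades ATP and ADP, was the lowest (-2.74 ± 0.36, edgeR adjusted p = 1.11e-08), at 4.33, 3.72 and 3.58 CPM in vehicle and 0.564, 0.511 and 0.646 CPM in ENPP1+ATP. Enpp5 rose from 18.3, 17.2 and 18.7 to 32.8, 31.9 and 33.9 CPM (0.87 ± 0.079, edgeR adjusted p = 9.93e-13). Mgp, an inhibitor of calcification, had a log2 fold change of -0.98 and Enpp2, which makes lysophosphatidic acid, one of 1.09, and each lost its call when any of 3 libraries was left out, with values down to -0.87 and 0.81.

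None of the purinergic receptor and nucleoside transporter genes rose, and 6 of 18 fell (median log2 fold change -0.28). P2ry2, a receptor for ATP and UTP, stood at 14.1, 16.2 and 15.1 CPM in vehicle and 7.89, 9.39 and 7.88 CPM in ENPP1+ATP (-0.85 ± 0.12, edgeR adjusted p = 3.11e-08). P2ry1, a receptor for ADP, fell from 12.3, 12.5 and 11.2 to 8.45, 7.98 and 10.0 CPM (-0.44 ± 0.12, edgeR adjusted p = 0.00174). Slc29a4 and the adenosine receptor gene Adora2b also fell but lay under 2 CPM in every library, and Adora2b lost its call without ENPP1+ATP replicate 3 (log2 fold change -1.38). In the purine synthesis and salvage list 9 of 31 tested members rose and 11 fell, with a median log2 fold change of -0.081. Ampd3, which deaminates AMP to IMP, rose from 16.4, 17.2 and 19.4 to 44.7, 41.7 and 45.3 CPM (log2 fold change 1.31 ± 0.079 (SE), edgeR adjusted p = 1.54e-18). Gda, which deaminates guanine, rose from 0.894, 0.965 and 0.609 to 3.87, 4.598 and 4.85 CPM (2.41 ± 0.27, edgeR adjusted p = 3.76e-10), and Ak4, a mitochondrial adenylate kinase, fell from 3.37, 2.48 and 2.51 to 1.48, 1.15 and 1.29 CPM (-1.09 ± 0.28, edgeR adjusted p = 0.000764). Aprt, which salvages adenine to AMP, did not pass the threshold (0.087 ± 0.048, edgeR adjusted p = 0.126).

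In the pyrimidine list 8 of 25 tested members rose and 9 fell, with a median log2 fold change of -0.093. The genes of de novo synthesis moved little: Cad, which catalyses the first steps, fell from 112, 120.4 and 120.3 to 96.3, 102 and 107 CPM (-0.21 ± 0.05, edgeR adjusted p = 0.000423), and Umps, which makes orotidine and uridine monophosphate, did not pass the threshold (0.10 ± 0.059, edgeR adjusted p = 0.147). Dhodh, the step between them, fell by 0.31 on the log2 scale (edgeR adjusted p = 0.0118) but lost its call without vehicle replicate 1 (-0.26) or ENPP1+ATP replicate 3 (-0.27). The 4 largest called changes of the list were rises, although more of its members fell than rose. Dck, deoxycytidine kinase, stood at 5.84, 7.30 and 5.93 CPM in vehicle and at 10.4 CPM or more in each ENPP1+ATP library (1.05 ± 0.14, edgeR adjusted p = 1.43e-08). Tyms, thymidylate synthase, rose from 40.02, 38.0 and 38.0 to 62.1, 58.3 and 63.2 CPM (0.66 ± 0.06, edgeR adjusted p = 9.02e-13), and the nucleotidases Nt5c and Nt5m rose by 0.83 and 0.74 on the log2 scale. The groups of Nt5m overlapped, with vehicle replicate 2 at 4.685 CPM and ENPP1+ATP replicate 2 at 4.598 CPM.

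Transcripts of p53 targets rose more often than they fell. Of the p53 targets, 26 of 42 tested rose, 7 fell and 9 did not pass the threshold, against 28.6% and 27.4% of all genes, and their median log2 fold change was 0.36. Cdkn1a, the cyclin-dependent kinase inhibitor p21, stood at 239, 242 and 241 CPM in vehicle and 499, 473 and 516 CPM in ENPP1+ATP (log2 fold change 1.04 ± 0.041 (SE), edgeR adjusted p = 8.27e-25). Mdm2, the ubiquitin ligase that degrades p53, stood at 78.0, 71.4 and 74.7 CPM in vehicle and 154, 151 and 152 CPM in ENPP1+ATP (1.02 ± 0.047, edgeR adjusted p = 2.22e-22). For both genes the lowest ENPP1+ATP library lay far above the highest vehicle library. Gtse1, which restrains p53 in the G2 phase, rose from 33.9, 38.1 and 36.7 to 98.1, 95.8 and 99.3 CPM (1.43 ± 0.054, edgeR adjusted p = 1.72e-25). Eda2r, of the TNF receptor family, rose from 15.8, 10.9 and 14.5 to 30.4, 31.0 and 31.0 CPM (1.17 ± 0.092, edgeR adjusted p = 1.33e-14). Rprm rose too but stayed under 1 CPM in all 6 libraries and lost its call when any of 3 libraries was left out. The targets that fell, given here after their values were seen, were Cd82, Pmaip1, Plk3, Plk2, Sesn2, Btg2 and Tsc22d1, between -0.85 and -0.15 on the log2 scale.

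Proapoptotic genes rose and fell at close to the shares of all genes. Of these genes 10 of 34 tested members rose (29.4%) and 10 fell (29.4%), against 28.6% and 27.4% of all genes. Their median log2 fold change was -0.005, and over the processing alternatives that median lay at -0.041 to 0.032. Bax, which permeabilises the outer mitochondrial membrane, rose from 70.0, 67.7 and 71.0 to 84.4, 89.2 and 84.7 CPM (log2 fold change 0.31 ± 0.051 (SE), edgeR adjusted p = 1.89e-06). Its partner Bak1 went from 83.6, 82.9 and 89.0 to 90.2, 93.8 and 98.3 CPM (0.15 ± 0.05, edgeR adjusted p = 0.0119), a call that was lost without vehicle replicate 1, vehicle replicate 2 or ENPP1+ATP replicate 3, at 0.11 to 0.13. Fas, a death receptor, rose from 9.21, 6.61 and 7.84 to 13.7, 16.4 and 15.2 CPM (0.94 ± 0.12, edgeR adjusted p = 1.14e-08), and Casp12, a caspase of the endoplasmic reticulum, fell from 12.99, 12.1 and 10.7 to 4.30, 4.92 and 4.91 CPM (-1.34 ± 0.14, edgeR adjusted p = 4.01e-11). Trib3, a stress-induced pseudokinase, fell from 70.1, 74.2 and 76.1 to 35.4, 30.7 and 35.1 CPM (-1.12 ± 0.076, edgeR adjusted p = 5.42e-14). Bcl2 did not pass the threshold (-0.04 ± 0.10, edgeR adjusted p = 0.766), with overlapping groups. Of the antiapoptotic genes 7 of 17 tested members rose and 1 fell, with a median log2 fold change of -0.04, a median of the opposite sign to the balance of calls and at -0.064 to 0.008 over the alternatives. Nol3, an apoptosis repressor of muscle, rose from 29.6, 24.6 and 27.8 to 40.4, 33.2 and 42.7 CPM (0.50 ± 0.079, edgeR adjusted p = 6.13e-07), and Xiap, the X-linked inhibitor of caspases, from 29.9, 28.9 and 28.5 to 35.1, 40.8 and 43.0 CPM (0.45 ± 0.077, edgeR adjusted p = 4.23e-06).

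Replication genes more often rose and mitosis genes more often fell. In the S phase and DNA replication list 29 of 59 tested members rose and 5 fell, with a median log2 fold change of 0.25. Fen1, the flap endonuclease of lagging strand synthesis, rose from 29.4, 28.7 and 27.1 to 54.2, 55.3 and 48.7 CPM (log2 fold change 0.89 ± 0.065 (SE), edgeR adjusted p = 8.63e-16). Ccne2, a cyclin that starts S phase, rose from 11.96, 12.5 and 10.4 to 21.8, 19.0 and 21.3 CPM (0.83 ± 0.099, edgeR adjusted p = 1.35e-09), and Rrm2, the regulated subunit of ribonucleotide reductase, from 45.9, 46.9 and 46.1 to 82.3, 81.1 and 82.5 CPM (0.82 ± 0.053, edgeR adjusted p = 1.59e-17). In the G2 and M phase list 9 of 73 tested members rose and 27 fell, with a median log2 fold change of -0.13. Ccnb1, the mitotic cyclin, fell from 23.4, 24.3 and 22.8 to 12.8, 12.5 and 14.5 CPM (-0.82 ± 0.097, edgeR adjusted p = 1.09e-09), and Kif15, a spindle kinesin, from 15.5, 13.7 and 11.9 to 8.45, 6.90 and 6.66 CPM (-0.91 ± 0.15, edgeR adjusted p = 3.53e-06). Spc24, of the kinetochore, rose from 8.59, 9.92 and 7.61 to 13.52, 13.4 and 16.0 CPM (0.71 ± 0.12, edgeR adjusted p = 3.52e-06). Which cells of the culture carried these transcripts cannot be told from bulk libraries.

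Of the D cyclins and cell cycle inhibitors 8 of 24 tested members rose and 11 fell, with a median log2 fold change of -0.14. Myc, a transcription factor of growth, fell from 55.3, 54.8 and 60.7 CPM in vehicle to 13.95, 17.4 and 17.8 CPM in ENPP1+ATP (log2 fold change -1.79 ± 0.081 (SE), edgeR adjusted p = 9.29e-23), while the cell cycle inhibitors Tob1 and Cdkn1c rose by 0.90 and 0.83 on the log2 scale. Among DNA damage signalling and repair genes 20 of 47 tested members rose and 5 fell, with a median log2 fold change of 0.14. Xrcc1, a scaffold of single-strand break repair, rose from 34.6, 34.2 and 33.7 to 64.6, 67.1 and 62.2 CPM (0.92 ± 0.063, edgeR adjusted p = 1.32e-16), and Lig4, the ligase of end joining, from 21.3, 23.9 and 19.2 to 37.5, 38.1 and 39.1 CPM (0.83 ± 0.075, edgeR adjusted p = 7.59e-13). Fancc of the Fanconi pathway rose from 2.68, 3.17 and 1.75 to 4.44, 4.28 and 4.91 CPM (0.83 ± 0.21, edgeR adjusted p = 0.000609). Chek1, the checkpoint kinase, went the other way, from 272, 266 and 275 to 149.5, 159 and 168 CPM (-0.77 ± 0.043, edgeR adjusted p = 1.17e-19).

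**Figure D2:**
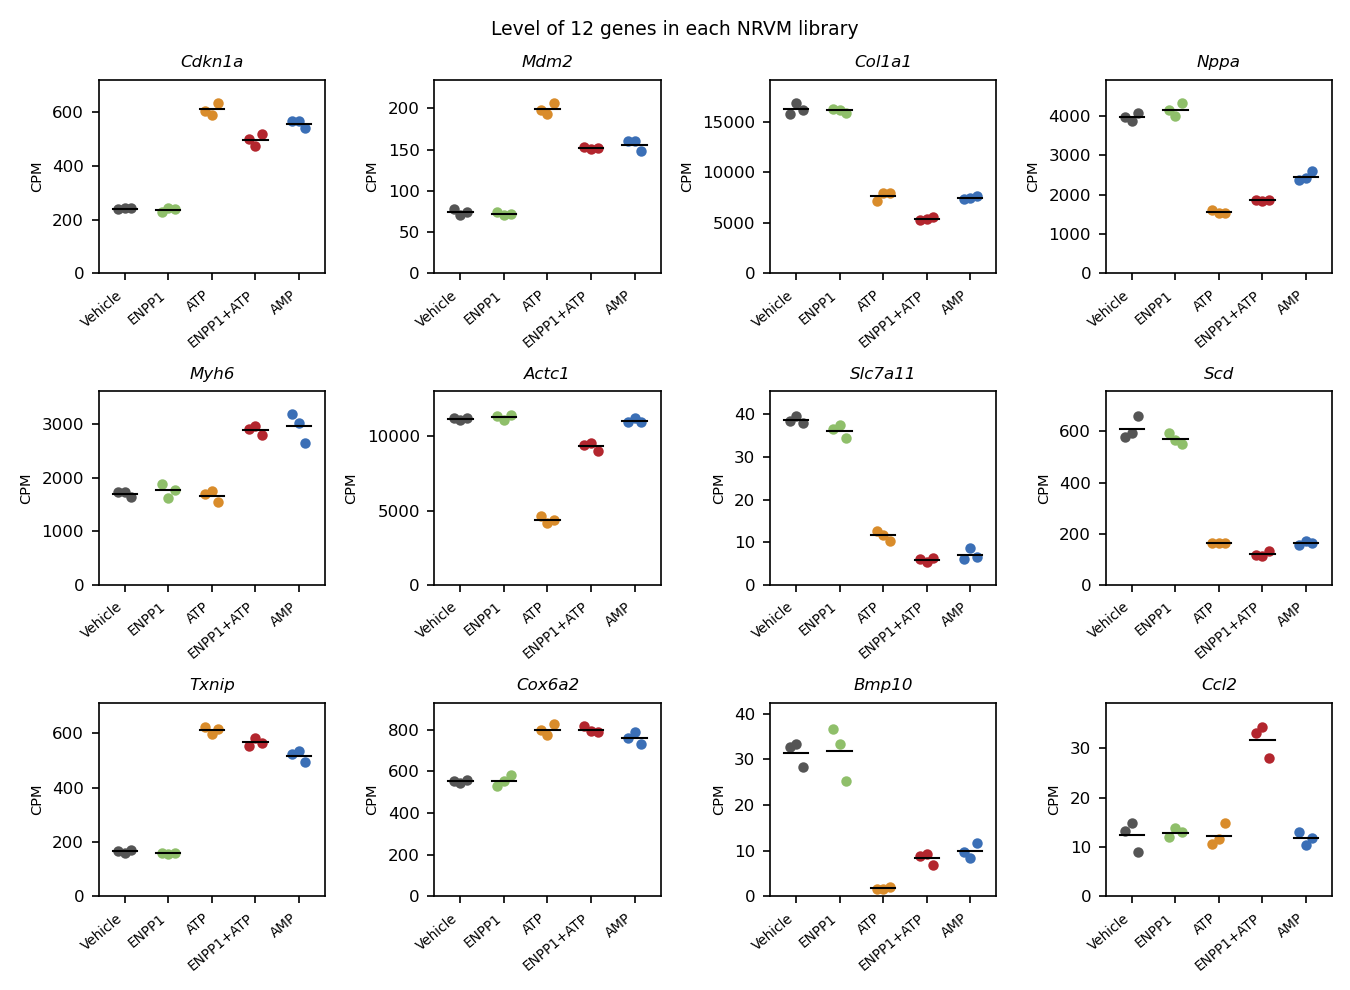
Level in CPM (vertical axes, each from 0) of 12 genes in each of the 15 NRVM libraries, grouped by medium; points are libraries and bars are means of 3. Vehicle and ENPP1 libraries lie together in each panel. The ENPP1+ATP libraries do not overlap the ATP libraries in many panels, among them Actc1, Bmp10, Ccl2, Col1a1, Nppa, Myh6, Cdkn1a and Slc7a11.

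Myocyte genes moved in both directions rather than together. Of the 17 cardiomyocyte markers, 7 rose, 7 fell and 3 did not pass the threshold, with a median log2 fold change of 0.002 (-0.009 to 0.014 over the alternatives), and their summed level fell by 10% from vehicle to ENPP1+ATP. The myosin heavy chains went in opposite directions. Myh6, the fast isoform that prevails in the adult rat, rose from 1740, 1742 and 1632 CPM in vehicle to 2915, 2957 and 2786 CPM in ENPP1+ATP (log2 fold change 0.76 ± 0.07 (SE), edgeR adjusted p = 3.55e-07), and Myh7, the slow isoform, fell to the levels given above (-0.42 ± 0.063, edgeR adjusted p = 3.84e-05). Mb, the oxygen store myoglobin, rose from 592, 609 and 619 to 974, 1013 and 949 CPM (0.69 ± 0.05, edgeR adjusted p = 6.95e-13). Csrp3, a muscle LIM protein of the Z disc, fell from 735, 670.2 and 775 to 339.9, 325 and 337 CPM (-1.12 ± 0.044, edgeR adjusted p = 2.1e-24), and Myl2, the ventricular regulatory light chain, from 2998, 2748 and 3033 to 1945, 1910 and 1877 CPM (-0.62 ± 0.04, edgeR adjusted p = 2.83e-17). Actc1 fell by 0.26, Tnnt2 by 0.26, Actn2 by 0.22 and Tnnc1 by 0.44 on the log2 scale, and Tnni3 rose by 0.29 and Ckm by 0.34. Mybpc3 and Myl3 did not pass the threshold and their groups overlapped. Ryr2, the calcium release channel, had a log2 fold change of -0.20 (edgeR adjusted p = 0.0963), and Nkx2-5 rose by 0.39 but lost its call in 3 of the fits without a library, at 0.27 without vehicle replicate 1.

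In the sarcomere list 7 of 27 tested members rose and 17 fell, with a median log2 fold change of -0.23. The lowest member was Xirp2, an actin-binding protein of the intercalated disc, which fell from 1274, 1101 and 1244 CPM in vehicle to 262, 257 and 322 CPM in ENPP1+ATP (log2 fold change -2.10 ± 0.12 (SE), edgeR adjusted p = 3.73e-08). Ankrd1, a stretch-responsive cofactor, fell from 4303, 4028 and 4163 to 2648, 2530 and 2760 CPM (-0.65 ± 0.04, edgeR adjusted p = 2.84e-18). Of the natriuretic peptide and hypertrophy genes 5 of 17 tested members rose and 8 fell, with a median log2 fold change of -0.035 (-0.088 to 0.014 over the alternatives). Nppa, which encodes atrial natriuretic peptide, fell from 3974, 3876 and 4084 to 1874, 1832 and 1863 CPM (-1.10 ± 0.04, edgeR adjusted p = 3.36e-26), and Nppb, for the brain natriuretic peptide, from 871, 801 and 885 to 408, 377 and 463 CPM (-1.03 ± 0.093, edgeR adjusted p = 2.01e-06). Both sets of libraries were tight and far apart. Nfatc2, a calcineurin-regulated transcription factor, rose from 12.7, 11.5 and 11.7 to 24.7, 22.4 and 20.8 CPM (0.92 ± 0.099, edgeR adjusted p = 1.29e-10), and Clu, the secreted chaperone clusterin, from 762, 731 and 736 to 1327, 1324 and 1288 CPM (0.82 ± 0.037, edgeR adjusted p = 7.3e-23).

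For calcium handling and ion channels, 13 of 36 members rose and 12 fell (median log2 fold change 0.026, -0.011 to 0.08 over the alternatives). Hrc, a histidine-rich calcium-binding protein of the sarcoplasmic reticulum, rose from 89.3, 90.4 and 90.8 to 183, 178 and 179.8 CPM (log2 fold change 0.999 ± 0.049 (SE), edgeR adjusted p = 1.18e-21), Pln, the inhibitor of the calcium pump, from 1537, 1528 and 1442 to 2047, 2172 and 2069 CPM (0.48 ± 0.052, edgeR adjusted p = 1.65e-08), and Atp2a2, the pump, from 2535, 2601 and 2486 to 3272, 3365 and 3097 CPM (0.35 ± 0.044, edgeR adjusted p = 1.48e-08). Adrb1, the main cardiac beta-adrenergic receptor, rose from 5.71, 9.23 and 7.84 to 14.6, 14.8 and 14.4 CPM (0.94 ± 0.14, edgeR adjusted p = 2.64e-07). The potassium channel genes Kcnd3 and Kcnj5 each fell by 1.14 on the log2 scale, Kcnj5 from 87.7, 80.9 and 76.7 to 40.5, 35.6 and 35.7 CPM. At the intercalated disc and in cell adhesion, 5 rose and 9 fell of 18 tested (median -0.089). Lama2, a laminin chain of the muscle basement membrane, fell from 753, 709 and 695 to 268, 283 and 270.4 CPM (-1.39 ± 0.051, edgeR adjusted p = 3.5e-20), and Itgb1, the beta1 integrin, from 1423, 1439 and 1448 to 991, 978 and 1032 CPM (-0.52 ± 0.037, edgeR adjusted p = 6.05e-16). Dsp, desmoplakin, rose from 1598, 1482 and 1489 to 2066, 2061 and 2065 CPM (0.44 ± 0.062, edgeR adjusted p = 1.04e-05).

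Summed fibroblast markers fell by a larger share than the summed markers of the other 5 cell types listed. The 13 cardiac fibroblast markers tested summed to 25320, 26730 and 26210 CPM in vehicle and to 8643, 8973 and 9084 CPM in ENPP1+ATP, a fall of 65.9%. Col1a1 and Col3a1 made up 89.6% to 90.08% of that sum in vehicle, and without them the other 11 markers summed to 2596, 2653 and 2725 CPM in vehicle and 1119, 1176 and 1191 CPM in ENPP1+ATP, a change of -56.3%, while the median log2 fold change over the 13 genes was -0.82. In bulk libraries, fewer fibroblasts and less of these RNAs in each fibroblast cannot be told apart. Col1a1, the alpha1 chain of type I collagen, fell from the vehicle levels above to 5302, 5422 and 5526 CPM (log2 fold change -1.58 ± 0.039 (SE), edgeR adjusted p = 4.16e-32), and Col3a1, of type III collagen, from 6993, 7291 and 7331 to 2222, 2375 and 2367 CPM (-1.63 ± 0.046, edgeR adjusted p = 4e-26). Tcf21, a transcription factor of cardiac fibroblasts, fell from 49.99, 59.9 and 52.3 to 10.1, 11.3 and 11.7 CPM (-2.29 ± 0.10, edgeR adjusted p = 6.78e-20), Ddr2, a collagen receptor, from 148, 164 and 146 to 49.2, 49.9 and 48.5 CPM (-1.63 ± 0.061, edgeR adjusted p = 9.25e-23), and Pdgfra, the PDGF receptor alpha, from 69.5, 70.2 and 76.7 to 25.6, 29.3 and 27.1 CPM (-1.40 ± 0.097, edgeR adjusted p = 2.25e-10). The markers did not move as a block: of the 13, 7 fell, 1 rose and 5 did not pass the threshold. Dcn, the proteoglycan decorin, stood at 55.6, 66.1 and 68.8 CPM in vehicle and 66.9, 62.4 and 70.4 CPM in ENPP1+ATP (0.07 ± 0.13, edgeR adjusted p = 0.67), with overlapping groups, and neither Lum (0.25 ± 0.49, edgeR adjusted p = 0.691) nor Dpt (0.13 ± 0.12, edgeR adjusted p = 0.389) passed the threshold. Thy1 rose by 0.45 on the log2 scale (edgeR adjusted p = 0.0251) and lost its call without vehicle replicate 3 (0.33). Col1a2 was not analysed here.

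**Figure D3:**
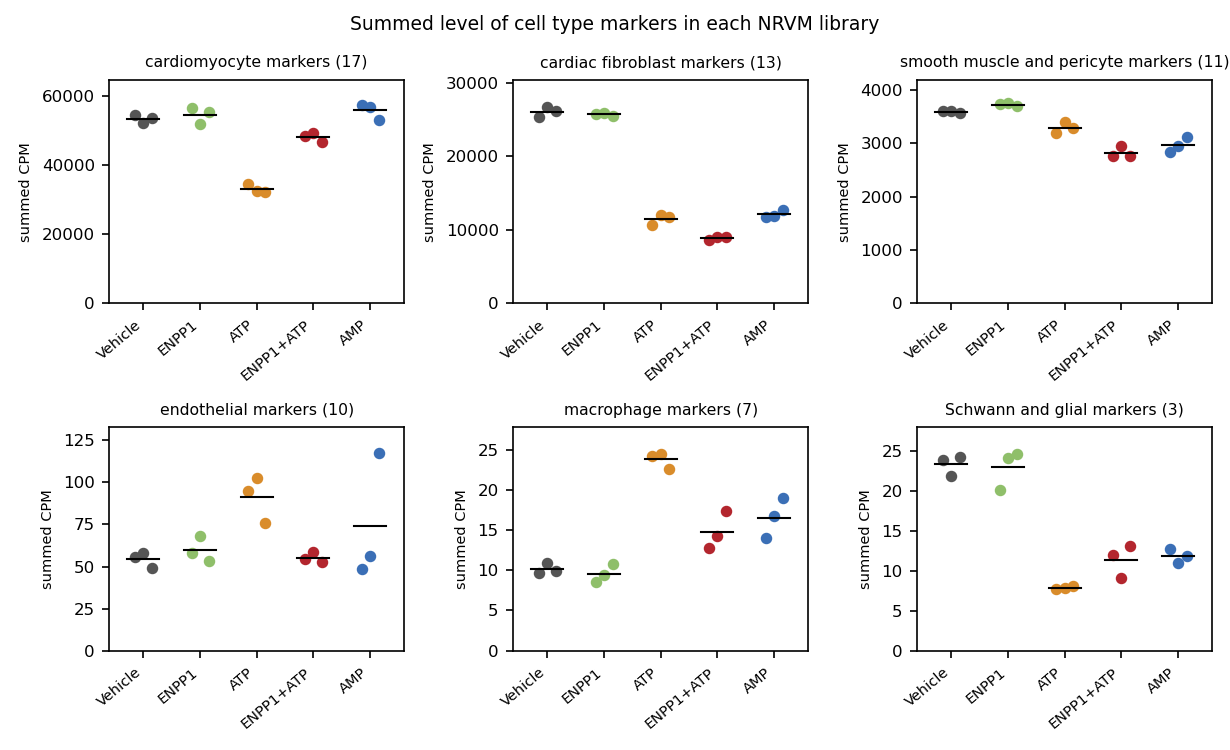
Summed CPM (vertical axes, each from 0) of the markers of 6 cell types in each of the 15 NRVM libraries, grouped by medium; points are libraries, bars are means of 3, and brackets give the number of markers summed. Fibroblast markers in ENPP1+ATP (8643 to 9084) lie below vehicle (25320 to 26730), while endothelial markers overlap.

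Beyond these markers, the collagens and matrix list had 4 members that rose and 47 that fell of 63 tested, with a median log2 fold change of -0.91, the lowest of the 48 lists, against 27.4% of all genes that fell. Col14a1, a collagen at fibril surfaces, fell from 943, 1041 and 1051 CPM in vehicle to 187, 186 and 192 CPM in ENPP1+ATP (log2 fold change -2.43 ± 0.084 (SE), edgeR adjusted p = 4e-11). Tnc, tenascin C, a glycoprotein of wounds, fell from 381, 398 and 391 to 86.4, 80.5 and 87.7 CPM (-2.20 ± 0.072, edgeR adjusted p = 2.39e-14). Col8a2, a short chain collagen, fell from 22.7, 21.8 and 24.4 to 4.65, 5.17 and 4.72 CPM (-2.24 ± 0.23, edgeR adjusted p = 1.92e-06). In each of the 3 genes the groups were far apart. Matrix proteases and their inhibitors also fell, 18 of 25 against 3 that rose (median -0.69). Adamts2, which trims procollagen, fell from 121, 124 and 124 to 48.2, 47.5 and 49.5 CPM (-1.34 ± 0.054, edgeR adjusted p = 1.15e-24), and Timp3, a metalloproteinase inhibitor, from 103, 108 and 118 to 55.5, 59.8 and 54.3 CPM (-0.96 ± 0.074, edgeR adjusted p = 1.28e-10). Plau was called higher but lay under 2 CPM throughout. The summed fibroblast marker level fell along with most, but not all, members of these lists, and its part in the result was not tested.

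Of the myofibroblast and smooth muscle contractile genes 3 of 22 tested members rose and 14 fell, with a median log2 fold change of -0.25. The fibroblast marker sum changed by -65.9% in the same libraries, and by -56.3% without Col1a1 and Col3a1. Its part in the falls of this list was not tested. Flna, which crosslinks actin, fell from 1579, 1592 and 1479 to 683, 767 and 691 CPM (log2 fold change -1.12 ± 0.096 (SE), edgeR adjusted p = 1.42e-06), and Cdh11, a mesenchymal cadherin, from 137, 138 and 145 to 48.2, 63.9 and 50.1 CPM (-1.37 ± 0.17, edgeR adjusted p = 3.93e-05). Fap, a fibroblast protease near the count limit, fell by 0.90 on the log2 scale and lost its call without ENPP1+ATP replicate 2 (-0.73) or 3 (-0.74). Acta2, smooth muscle actin, stood at 626, 665 and 567 CPM in vehicle and 402, 505 and 403 CPM in ENPP1+ATP (-0.51 ± 0.11, edgeR adjusted p = 0.00254). The 11 smooth muscle and pericyte markers summed to 3595, 3607 and 3570 CPM in vehicle and 2753, 2953 and 2762 CPM in ENPP1+ATP, with 1 that rose and 5 that fell (median 0, -0.20 to 0.11 over the alternatives). Replicate 2 of ENPP1+ATP was the highest of its group for the contractile members, with Myh11 at 16.2, 41.4 and 19.1 CPM and Cnn1 at 18.7, 31.4 and 18.4 CPM in the 3 ENPP1+ATP libraries. Cnn1 fell all the same, from 41.7, 39.1 and 37.2 CPM in vehicle (-0.78 ± 0.22, edgeR adjusted p = 0.0106), and Cspg4, a proteoglycan of pericytes, fell from 233, 215 and 235 to 139, 144 and 144 CPM (-0.68 ± 0.051, edgeR adjusted p = 3.62e-14). Abcc9 rose by 0.13 and Smtn fell by 0.14 on the log2 scale, and each lost its call in several of the fits without a library, at 0.11 and -0.11 at the nearest to 0.

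Markers of the remaining cell types were scarce. The 10 endothelial markers tested, of 12 listed, summed to 55.9, 57.8 and 49.1 CPM in vehicle and 54.5, 58.5 and 52.7 CPM in ENPP1+ATP, which overlapped, and 2 rose and 2 fell (median log2 fold change 0.34, -0.06 to 0.52 over the alternatives). Kdr, a VEGF receptor, rose from 7.22, 5.44 and 5.78 to 11.97, 12.5 and 13.1 CPM (log2 fold change 1.03 ± 0.13 (SE), edgeR adjusted p = 8.91e-09), and Tek, the angiopoietin receptor, fell from 18.0, 21.5 and 18.0 to 5.85, 7.41 and 6.33 CPM (-1.55 ± 0.14, edgeR adjusted p = 3.66e-11). Flt1 fell by 0.65 and Egfl7 rose by 0.43 on the log2 scale, Egfl7 losing its call in 5 of 6 fits without a library, with 0.34 at the lowest. Cdh5, Tie1, Vwf, Emcn, Esam and Cldn5 did not pass the threshold, and Pecam1 and Robo4 were not analysed here. The 7 macrophage markers tested summed to 9.70, 10.9 and 9.89 CPM in vehicle and 12.8, 14.3 and 17.3 CPM in ENPP1+ATP. Csf1r, the receptor that sustains macrophages, accounted for most of that difference, at 0.619, 0.276 and 0.837 CPM in vehicle and 3.87, 3.51 and 4.46 CPM in ENPP1+ATP (2.78 ± 0.30, edgeR adjusted p = 1.55e-10). Cd68 rose by 0.68 and lost its call without vehicle replicate 3 (0.43), and Ptprc, Adgre1, C1qa, C1qb, C1qc and Aif1 had at most 5 counts in any of the 6 libraries, C1qc at 0 in all of them. Of the Schwann and glial markers, Gpm6b fell from 16.5, 15.6 and 18.3 to 4.51, 3.83 and 6.01 CPM (-1.81 ± 0.15, edgeR adjusted p = 2.65e-14), S100b did not pass the threshold, and Sox10 and Kcna1 had at most 1 count in any of the 6 libraries, Kcna1 at 0 in all.

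Genes of TGF-beta, BMP and YAP signalling fell, 29 of 36 against 3 that rose (median log2 fold change -0.58). Bmp10, a BMP ligand made by cardiomyocytes, fell from 32.6, 33.3 and 28.2 CPM in vehicle to 8.95, 9.32 and 6.85 CPM in ENPP1+ATP (log2 fold change -1.91 ± 0.14 (SE), edgeR adjusted p = 3.8e-12). Id3, a direct BMP target, fell from 62.0, 64.9 and 64.7 to 19.1, 24.3 and 20.7 CPM (-1.58 ± 0.097, edgeR adjusted p = 1.5e-12), and Inhbb, an activin subunit, from 5.98, 6.68 and 5.86 to 1.06, 1.21 and 1.55 CPM (-2.27 ± 0.21, edgeR adjusted p = 1.28e-12). Of the growth factors and angiogenic ligands 6 of 41 tested members rose and 26 fell, with a median log2 fold change of -0.54. Edn1, which encodes the vasoconstrictor endothelin 1, fell from 13.1, 11.99 and 11.6 to 4.16, 3.83 and 3.10 CPM (-1.73 ± 0.15, edgeR adjusted p = 4.43e-13), and Igfbp4, an IGF-binding protein, from 128, 139.6 and 145 to 38.0, 50.4 and 37.4 CPM (-1.71 ± 0.11, edgeR adjusted p = 5.76e-08). Apln and Fgf10 fell by 2.23 and 1.97 on the log2 scale, both at low levels. The summed fibroblast marker level, most of it from Col1a1 and Col3a1, fell by 65.9% in the same libraries, as given above, and its part in the falls of these lists and of the Wnt and Notch list was not tested. In the Wnt and Notch list 3 of 33 rose and 14 fell (median -0.29). Rspo1, a secreted Wnt enhancer, fell from 20.5, 22.7 and 26.9 to 5.64, 9.01 and 3.75 CPM (-1.92 ± 0.21, edgeR adjusted p = 1.85e-06), and Rspo3 and Tcf7 by 2.03 and 2.02 on the log2 scale.

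Genes of the integrated stress response, several of which serve amino acid transport and synthesis, mostly fell in ENPP1+ATP. Of the ATF4 and integrated stress response genes, 34 of 39 tested fell and 2 rose (median log2 fold change -0.64). Slc7a5, the light chain of the large neutral amino acid transporter, fell from 259.7, 267 and 266 CPM in vehicle to 74.4, 75.4 and 79.3 CPM in ENPP1+ATP (log2 fold change -1.79 ± 0.045 (SE), edgeR adjusted p = 5.17e-32). Aldh1l2, a mitochondrial folate enzyme, fell from 79.7, 81.3 and 83.5 to 14.02, 14.8 and 16.4 CPM (-2.43 ± 0.07, edgeR adjusted p = 9.49e-30), and Cth, which makes cysteine, from 2.68, 2.69 and 2.89 to 0.352, 0.383 and 0.517 CPM (-2.69 ± 0.41, edgeR adjusted p = 3.41e-07). Together with Slc7a11, described above, these were the 4 largest changes of the list. Members named after their values were seen were the serine synthesis genes Phgdh, Psat1 and Psph, at -1.21, -1.41 and -0.59 on the log2 scale, Atf4 at -0.83, and Asns at -0.57. The part of the fall in the fibroblast marker sum in the falls of this list and of the endoplasmic reticulum and ribosome lists below was not tested. In the endoplasmic reticulum list 1 of 28 tested members rose and 25 fell, with a median log2 fold change of -0.42. Pdia4, a protein disulfide isomerase, fell from 231, 222 and 238 to 119, 122 and 113 CPM (-0.96 ± 0.048, edgeR adjusted p = 2.26e-21), and Sec61b, of the translocation channel, from 51.8, 53.5 and 50.3 to 28.4, 24.0 and 27.9 CPM (-0.96 ± 0.071, edgeR adjusted p = 2.14e-15). Ero1a, an oxidase of the same compartment, was the member that rose, from 53.7, 46.8 and 51.8 to 95.9, 93.1 and 102 CPM (0.94 ± 0.056, edgeR adjusted p = 1.36e-18).

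Transcripts for making ribosomes fell as a group. None of the 65 cytosolic ribosomal protein genes rose and 61 fell (median log2 fold change -0.52), and their share of all reads went from 2.21% to 2.26% in vehicle to 1.61% to 1.65% in ENPP1+ATP. Rpl3 fell from 840.3, 816 and 864 CPM in vehicle to 488, 465 and 491 CPM in ENPP1+ATP (log2 fold change -0.80 ± 0.038 (SE), edgeR adjusted p = 2.82e-22), Rpl10a from 208, 209 and 217 to 114, 110.4 and 110.4 CPM (-0.92 ± 0.046, edgeR adjusted p = 3.7e-21), and Rpl12 from 228, 241 and 237 to 144, 129 and 139 CPM (-0.78 ± 0.046, edgeR adjusted p = 1.41e-18). These genes have many processed copies, so the counts of single members are uncertain. In the ribosome biogenesis list 1 of 50 tested members rose and 41 fell, with a median log2 fold change of -0.32. Its lowest member was Myc, followed by Taf1d, a factor of RNA polymerase I, which fell from 28.5, 26.8 and 29.9 to 14.7, 13.48 and 14.5 CPM (-0.999 ± 0.096, edgeR adjusted p = 4.47e-12), and Rrp12, which exports preribosomes, from 74.3, 65.5 and 77.7 to 35.2, 35.9 and 41.0 CPM (-0.95 ± 0.065, edgeR adjusted p = 1.28e-16).

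**Figure D4:**
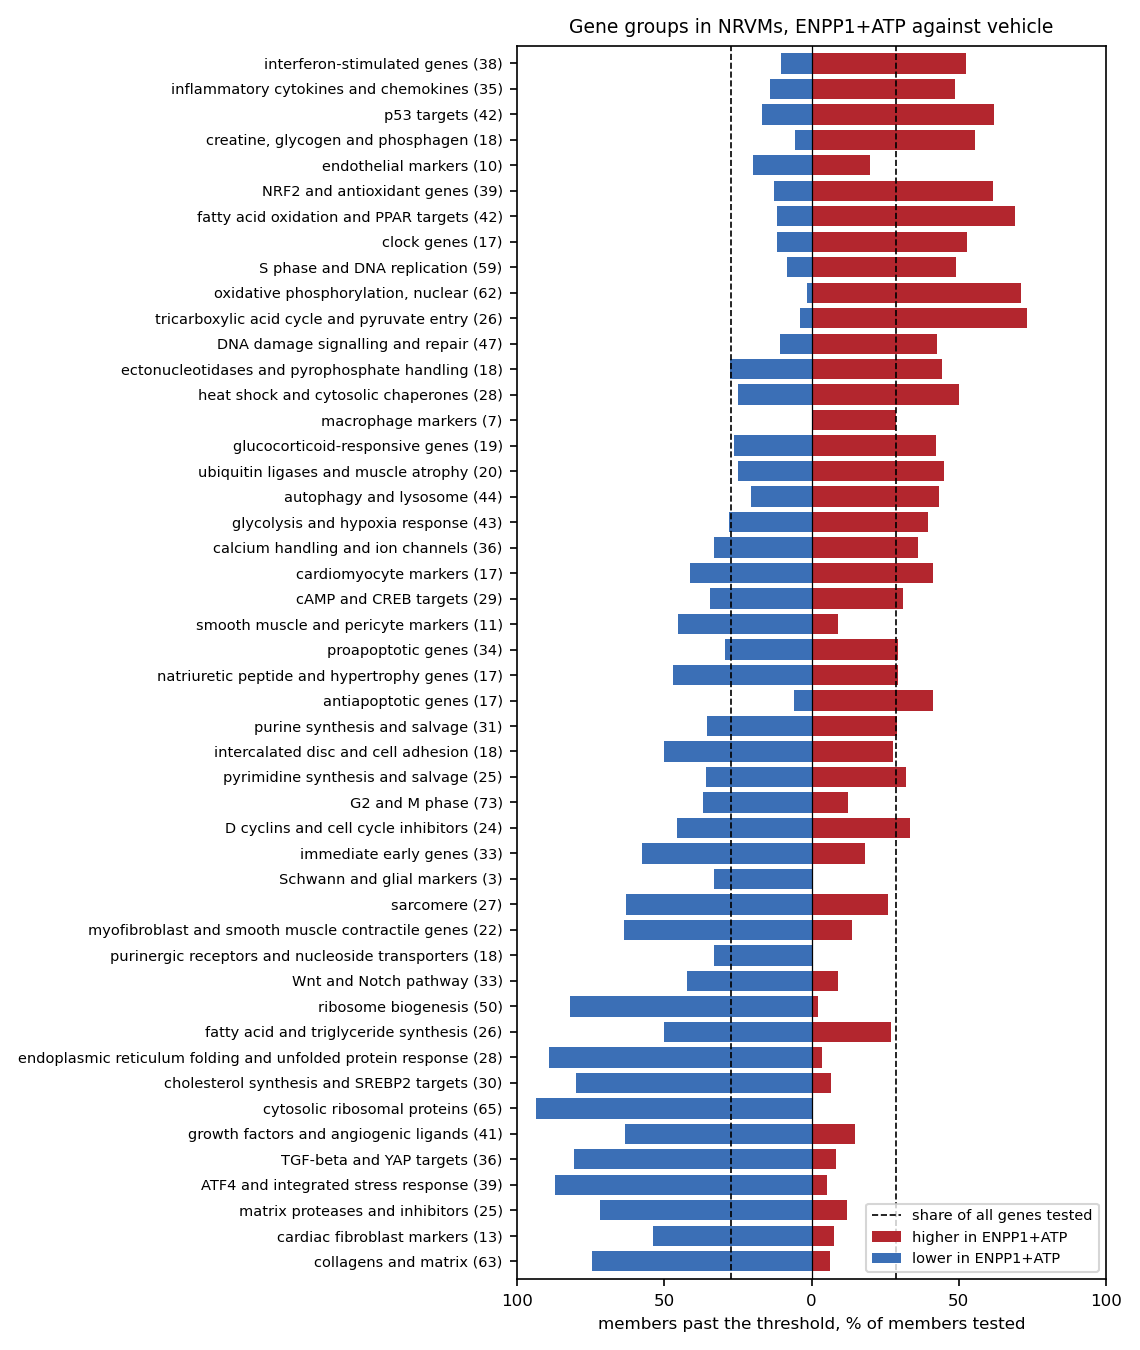
Share of the tested members of each of 48 gene lists (rows, with the number tested in brackets) that rose (red, right) or fell (blue, left) in ENPP1+ATP against vehicle, in percent, ordered by median log2 fold change. Dashed lines mark the 28.6% and 27.4% of all genes; ribosomal protein, endoplasmic reticulum and ATF4 genes extend farthest to the left, and tricarboxylic acid cycle and oxidative phosphorylation genes farthest to the right.

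Genes of cholesterol synthesis mostly fell and those of fat oxidation mostly rose. The fibroblast marker sum fell by 65.9% in the same libraries, and its part in the falls of cholesterol and fatty acid synthesis genes was not tested. Of the cholesterol synthesis and SREBP2 targets 2 of 30 tested members rose and 24 fell, with a median log2 fold change of -0.48. Fdps, which makes farnesyl diphosphate in the sterol pathway, fell from 833, 766 and 846 CPM in vehicle to 410, 391 and 419.8 CPM in ENPP1+ATP (log2 fold change -1.002 ± 0.045 (SE), edgeR adjusted p = 6.52e-22). Nr1h3, the oxysterol receptor LXR alpha, rose from 4.19, 3.58 and 2.51 to 10.1, 8.69 and 9.69 CPM (1.46 ± 0.16, edgeR adjusted p = 2.95e-10). Of the fatty acid and triglyceride synthesis genes 7 of 26 tested members rose and 13 fell, with a median log2 fold change of -0.36. Scd, the stearoyl-CoA desaturase, showed the largest change, from 579.5, 595 and 660 to 117, 113 and 132 CPM (-2.35 ± 0.053, edgeR adjusted p = 4.95e-27), and the desaturases Fads1 and Fads2 fell by 1.23 and 1.18 on the log2 scale. Acsl3, which activates fatty acids, fell from 127, 132 and 135 to 56.0, 53.2 and 55.4 CPM (-1.26 ± 0.053, edgeR adjusted p = 7.11e-24).

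In the fatty acid oxidation and PPAR list 29 of 42 tested members rose and 5 fell, with a median log2 fold change of 0.29. The fibroblast marker sum fell by 65.9% and the cardiomyocyte marker sum by 10% in the same libraries. Their part in the changes of the lists here and in the next paragraph was not tested. Txnip, which binds thioredoxin and restrains glucose uptake, rose from 166, 161 and 169.6 CPM in vehicle to 555, 584 and 565 CPM in ENPP1+ATP (log2 fold change 1.78 ± 0.041 (SE), edgeR adjusted p = 5.42e-33). Ech1, an auxiliary enzyme of beta oxidation, rose from 64.2, 62.6 and 58.6 to 123, 111 and 108 CPM (0.88 ± 0.055, edgeR adjusted p = 7.86e-18), and Vldlr, a lipoprotein receptor, fell from 153, 148 and 159 to 82.3, 81.2 and 85.4 CPM (-0.89 ± 0.052, edgeR adjusted p = 6.99e-19). Cpt1b, which admits fatty acids to mitochondria, and Pdk4, which blocks pyruvate entry, were chosen after their values were seen and rose by 0.61 and 0.87 on the log2 scale. Nuclear genes of oxidative phosphorylation rose by small amounts, 44 of 62 up and 1 down, with a median log2 fold change of 0.20. Cox6a2, the muscle form of a cytochrome oxidase subunit, rose from 555, 545 and 557 to 819.8, 792 and 792 CPM (0.54 ± 0.04, edgeR adjusted p = 1.74e-15), and Ndufa8, of complex I, from 124, 120.4 and 117 to 171, 168 and 165 CPM (0.48 ± 0.047, edgeR adjusted p = 7.79e-12). Of the 13 protein-coding genes of the mitochondrial genome, 10 rose and 0 fell by edgeR, with a median log2 fold change of 0.25, which moved with the mitochondrial share of reads given above. In the tricarboxylic acid cycle list 19 of 26 tested members rose and 1 fell, with a median log2 fold change of 0.15. Pdp2, which activates pyruvate dehydrogenase, rose from 25.0, 26.3 and 25.5 to 36.8, 35.5 and 37.3 CPM (0.51 ± 0.082, edgeR adjusted p = 9.1e-07), and Me2, a mitochondrial malic enzyme, from 28.8, 29.4 and 30.4 to 44.1, 39.98 and 41.6 CPM (0.51 ± 0.07, edgeR adjusted p = 4.94e-08).

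Of the creatine, glycogen and phosphagen genes 10 of 18 tested members rose and 1 fell, with a median log2 fold change of 0.36. Ckmt2, the mitochondrial creatine kinase of muscle, rose from 4.95, 5.44 and 6.09 CPM in vehicle to 13.8, 15.3 and 12.2 CPM in ENPP1+ATP (log2 fold change 1.33 ± 0.13 (SE), edgeR adjusted p = 1.25e-11), and Slc6a8, the creatine transporter, from 113, 108 and 124 to 236, 205 and 234 CPM (0.97 ± 0.062, edgeR adjusted p = 5.91e-12). In both the groups stood well apart. Glycolysis and hypoxia genes were mixed, with 17 of 43 up and 12 down (median 0.061). Eno3, the muscle enolase, rose from 179.8, 176 and 172 to 321, 312 and 311 CPM (0.84 ± 0.044, edgeR adjusted p = 1.54e-20). Ca12, a carbonic anhydrase near the count limit, fell by 1.31 on the log2 scale and lost its call without vehicle replicate 2 or ENPP1+ATP replicate 3 (-1.06 and -1.10).

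Among the tested genes of innate immune signalling, rises were more frequent than falls. Of the inflammatory cytokine and chemokine genes 17 of 35 tested members rose and 5 fell, with a median log2 fold change of 0.49, and 58 were in the table before the filter on low counts. The summed level of the tested members overlapped between the groups, at 695 to 719 CPM in vehicle and 708.9 to 755.5 CPM in ENPP1+ATP, a change of 3.14%. Il1rl1 was the highest and Ptx3 the lowest member, both described above. Lcn2, which binds bacterial siderophores, rose from 2.89, 2.20 and 2.66 CPM in vehicle to 6.90, 8.30 and 6.27 CPM in ENPP1+ATP (log2 fold change 1.47 ± 0.20 (SE), edgeR adjusted p = 3.01e-08), and the chemokine gene Cxcl11 from 1.17, 0.413 and 0.761 to 3.17, 3.70 and 2.78 CPM (2.03 ± 0.32, edgeR adjusted p = 6.11e-07). Ccl2, which attracts monocytes, rose from 13.2, 14.9 and 9.05 to 33.0, 34.3 and 27.9 CPM (1.35 ± 0.14, edgeR adjusted p = 3.2e-08). In the interferon-stimulated list 20 of 38 tested members rose and 4 fell, with a median log2 fold change of 0.51. Its summed level was 630 to 650 CPM in vehicle and 745 to 792 CPM in ENPP1+ATP. For both lists the filter on low counts kept a gene with enough counts in any of the media. Members near 0 in vehicle could thus be tested because they were higher elsewhere, which can tilt these counts and medians toward rises. Gbp2 stood at 6.39, 5.10 and 7.00 CPM in vehicle and 22.4, 27.3 and 24.3 CPM in ENPP1+ATP (2.01 ± 0.11, edgeR adjusted p = 2.26e-19), and Ifi44l at 0.206, 0.965 and 0.837 and 2.82, 2.36 and 1.81 CPM (1.79 ± 0.40, edgeR adjusted p = 0.000205). Ifit2, of a family of antiviral proteins, fell instead, from 16.7, 16.7 and 19.9 to 6.27, 5.05 and 5.23 CPM (-1.69 ± 0.12, edgeR adjusted p = 1.28e-15). Ifit and Mx genes have close paralogs between which reads may be shared, and Mx2 was barely detected in vehicle. The macrophage marker sum was higher too, as given above, and its part in these results was not tested.

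Immediate early genes fell more often than they rose, 19 against 6 of 33 (median log2 fold change -0.17). Fosb, an AP-1 subunit, rose from 2.34, 2.41 and 2.21 CPM in vehicle to 10.1, 10.4 and 12.02 CPM in ENPP1+ATP (log2 fold change 2.22 ± 0.18 (SE), edgeR adjusted p = 2.2e-14), whereas Klf2, a flow-responsive factor, fell from 25.9, 34.5 and 33.6 to 8.03, 11.9 and 9.76 CPM (-1.65 ± 0.12, edgeR adjusted p = 1.75e-13) and Dusp2, a MAP kinase phosphatase, from 1.99, 1.52 and 3.35 to 0.493, 0.383 and 0.582 CPM (-2.21 ± 0.38, edgeR adjusted p = 4.2e-06). Of the cAMP and CREB targets 9 of 29 tested members rose and 10 fell, with a median log2 fold change of 0.002 (-0.068 to 0.013 over the alternatives). Apart from Fosb, its largest changes were falls, of Pde10a, a cyclic nucleotide phosphodiesterase, from 6.74, 4.89 and 5.55 to 2.11, 1.66 and 1.75 CPM (-1.64 ± 0.22, edgeR adjusted p = 2.97e-08), and of the growth factor genes Bdnf and Areg, by 1.62 and 1.38 on the log2 scale. Among NRF2 and antioxidant genes 24 of 39 tested members rose and 5 fell, with a median log2 fold change of 0.29. Ephx1, an epoxide hydrolase, rose from 34.8, 29.2 and 31.4 to 80.1, 85.0 and 85.7 CPM (1.39 ± 0.061, edgeR adjusted p = 2.8e-23), and Gstp1, a glutathione transferase, from 87.8, 93.2 and 91.7 to 188, 179.8 and 195 CPM (1.05 ± 0.049, edgeR adjusted p = 2.55e-22). Slc7a11, counted in this list as well, fell.

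Of the heat shock genes and cytosolic chaperones 14 of 28 tested members rose and 7 fell, with a median log2 fold change of 0.14. Hspb6, a small heat shock protein of muscle, rose from 203, 189.9 and 235 CPM in vehicle to 317, 311 and 329 CPM in ENPP1+ATP (log2 fold change 0.61 ± 0.049 (SE), edgeR adjusted p = 3.05e-13), Bag3, a cochaperone of the Z disc, from 312, 314 and 319.6 to 432, 425 and 412 CPM (0.42 ± 0.038, edgeR adjusted p = 7.39e-13), and Hspb3 fell from 71.0, 63.9 and 69.5 to 45.9, 48.5 and 46.9 CPM (-0.53 ± 0.06, edgeR adjusted p = 2.82e-10). Hspa1b rose from 0.963, 0.965 and 0.456 to 5.001, 5.37 and 6.27 CPM (2.78 ± 0.26, edgeR adjusted p = 1.27e-12), with the reservation that it has a near-identical copy. Among autophagy and lysosome genes 19 of 44 tested members rose and 9 fell, with a median log2 fold change of 0.091. Sqstm1, the autophagy receptor p62, rose from 436, 407 and 499 to 777, 709 and 845 CPM (0.80 ± 0.087, edgeR adjusted p = 8.55e-06), and Glb1, a lysosomal galactosidase, fell from 76.1, 75.2 and 75.5 to 48.8, 49.4 and 49.2 CPM (-0.62 ± 0.053, edgeR adjusted p = 1.65e-13). In the ubiquitin ligase and atrophy list 9 of 20 tested members rose and 5 fell, with a median log2 fold change of 0.11. Trim63, the muscle ubiquitin ligase MuRF1, rose from 131, 123 and 121 to 200.1, 202 and 208 CPM (0.70 ± 0.046, edgeR adjusted p = 2.69e-17), and Cavin4, a muscle caveolar protein, fell from 125, 114 and 133 to 58.7, 55.2 and 66.8 CPM (-1.04 ± 0.058, edgeR adjusted p = 3.7e-18).

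Of the clock genes 9 of 17 tested members rose and 2 fell, with a median log2 fold change of 0.26. Cry1, a repressor of the clock, rose from 15.9, 14.7 and 16.5 CPM in vehicle to 25.9, 26.1 and 25.1 CPM in ENPP1+ATP (log2 fold change 0.71 ± 0.085 (SE), edgeR adjusted p = 1.58e-09), and Npas2, a partner of its activator, fell from 2.13, 2.27 and 3.499 to 1.20, 0.894 and 0.775 CPM (-1.46 ± 0.31, edgeR adjusted p = 7.86e-05). Of the glucocorticoid-responsive genes 8 of 19 tested members rose and 5 fell, with a median log2 fold change of 0.12. Fam107a fell from 14.4, 15.5 and 13.7 to 6.20, 4.47 and 4.14 CPM (-1.56 ± 0.15, edgeR adjusted p = 3.37e-12), while Sult1a1 and Angptl4 were called higher at levels close to the count limit.

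ENPP1+ATP medium was compared with the ATP medium, collected from NRVM given ATP without ENPP1. Both sets of NRVM differed widely from vehicle, ATP at 8067 genes (59.9%). The 3 ATP libraries lay at -36.36 to -32.96 on the first principal component and at 19.94 to 25.46 on the second, where ENPP1+ATP lay at -10.92 to -9.55. Fewer genes passed the threshold here, 3708 (27.5%), with 1897 higher (14.1%) and 1811 lower (13.5%) in ENPP1+ATP, and 212 changed by at least 1 on the log2 scale (1.57%). Myocyte genes were higher in ENPP1+ATP than in ATP: 11 of 17 cardiomyocyte markers were higher and 0 lower (median log2 fold change 0.28). Their summed level was 34670, 32610 and 32170 CPM in ATP, below every ENPP1+ATP and every vehicle library. Several summed markers of other cells were higher in ATP instead, with 10610 to 12030 CPM for fibroblasts (8643 to 9084 in ENPP1+ATP), 75.8 to 102.5 CPM for endothelial cells (52.7 to 58.5) and 22.6 to 24.5 CPM for macrophages (12.8 to 17.3), while those of Schwann and glial cells were lower in ATP, at 7.66 to 8.04 CPM (9.07 to 13.1), and the 11 fibroblast markers other than Col1a1 and Col3a1 summed to less in ATP (808.4 to 1015 CPM) than in ENPP1+ATP (1119 to 1191). The part of these levels in the result was not tested. In the sarcomere list 18 of 27 were higher and 1 lower (median 0.35), and for calcium handling and ion channels 27 of 36 were higher and 2 lower (median 0.45). Actc1, cardiac actin, stood at 4654, 4141 and 4370 CPM in ATP, 9444, 9512 and 9036 CPM in ENPP1+ATP and 11230, 11080 and 11260 CPM in vehicle (ENPP1+ATP over ATP, 1.09 ± 0.038, edgeR adjusted p = 2.37e-25). Ryr2 stood at 435, 418 and 363 CPM in ATP and 886, 970.4 and 827 CPM in ENPP1+ATP (1.14 ± 0.098, edgeR adjusted p = 5.14e-06). Pln stood at 1139, 954 and 1008 CPM in ATP and 2047, 2172 and 2069 CPM in ENPP1+ATP (1.02 ± 0.052, edgeR adjusted p = 6.45e-14). These 3 genes were named after their values were seen, and like 41% of all genes had no overlap between the groups. By count, fatty acid oxidation genes were likewise higher more often than lower, 23 against 1 of 42.

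Single genes were ranked against ATP among characterised genes whose groups did not overlap and whose mean log2 CPM was at least 2. Within these limits, the highest in ENPP1+ATP over ATP were Bmp10, Ccl7, Gpm6a, Tenm4 and Ccl2. Bmp10 stood at 1.70, 1.66 and 2.12 CPM in ATP and 8.95, 9.32 and 6.85 CPM in ENPP1+ATP (log2 fold change 2.19 ± 0.21 (SE), edgeR adjusted p = 4.71e-09), although both groups were below vehicle. Ccl2 stood at 10.5, 11.6 and 14.8 CPM in ATP and 33.0, 34.3 and 27.9 CPM in ENPP1+ATP (1.37 ± 0.14, edgeR adjusted p = 8.51e-08), and Ccl7, a related monocyte chemokine, at 2.03, 2.08 and 2.44 and 7.04, 6.45 and 7.69 CPM (1.69 ± 0.19, edgeR adjusted p = 2.13e-09). Lowest were Avpr1a, Plvap, Il1rl1, Fosl1 and Cntn2, with Il1rl1 at 42.1, 44.4 and 49.6 CPM in ATP and 14.9, 14.4 and 15.9 CPM in ENPP1+ATP (-1.59 ± 0.10, edgeR adjusted p = 4.83e-16) and Avpr1a, a vasopressin receptor, at 13.4, 12.4 and 13.7 and 4.37, 2.94 and 3.10 CPM (-1.93 ± 0.17, edgeR adjusted p = 1.94e-12). Of the p53 targets, 2 were higher and 27 lower in ENPP1+ATP than in ATP of 42 (median -0.27). Cdkn1a stood at 604, 589.6 and 632 CPM in ATP, above all ENPP1+ATP libraries (-0.30 ± 0.04, edgeR adjusted p = 1.08e-07), and Mdm2 at 199, 193 and 206 CPM (-0.39 ± 0.044, edgeR adjusted p = 1.53e-09). NRF2 and antioxidant genes were lower in 22 of 39, ATF4 genes in 27 of 39, S phase genes in 27 of 59, and collagen and matrix genes in 31 of 63, with 1, 1, 1 and 3 higher in these 4 lists. With upper quartile scaling the share of higher calls in this comparison was 44.5%, against 51.2% here.

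AMP is the product that ENPP1 forms from ATP, and fewer genes differed between AMP and ENPP1+ATP than between vehicle or ATP and ENPP1+ATP. The AMP libraries differed from vehicle at 7703 genes (57.2%) and lay at -27.5 to -21.2 on the first principal component and -19.89 to -11.7 on the second. The comparison gave 1300 genes past the threshold (9.66%), 518 higher (3.85%) and 782 lower (5.81%) in ENPP1+ATP, of which 65 changed by at least 1 on the log2 scale (0.483%), and 1217 genes without AMP replicate 3, 464 higher (3.4%) and 753 lower (5.52%). Values without that replicate follow in brackets or are named as such. Sarcomere genes were lower in ENPP1+ATP than in AMP at 22 of 27 members and higher at 0 (22 and 0 without the replicate), with a median log2 fold change of -0.20. The 17 cardiomyocyte markers summed to 46840 to 49230 CPM in ENPP1+ATP and 53210 to 57540 CPM in AMP, with 9 lower and 0 higher (12 and 0 without it), and the part of that level in the sarcomere result was not tested. G2 and M phase genes were lower at 34 and S phase genes at 24 of 73 and 59 (29 and 23 without it), none being higher, and cholesterol genes at 22 of 30 (22 without it). Of the collagen and matrix genes 29 of 63 were lower and 2 higher (28 and 4 without it). The fibroblast marker sum was lower too, at 8643 to 9084 CPM against 11770 to 12680 CPM in AMP, and its part was not tested, while the 11 markers other than Col1a1 and Col3a1 overlapped, at 1119 to 1191 and 1119 to 1394 CPM. Other lists had more higher calls than lower ones: TGF-beta and YAP targets 10 against 7 of 36 (13 and 6 without the replicate), cAMP and CREB targets 7 against 0 of 29 (6 and 0), inflammatory genes 6 against 0 of 35 (8 and 0) and ectonucleotidase genes 4 against 0 of 18 (3 and 0). The median log2 fold change of ribosomal protein genes was -0.006, and of the p53 targets 8 of 42 were lower in both. Oxidative phosphorylation genes were lower at 8 of 62, and at 15 without the replicate. Endothelial markers gave 1 higher and 1 lower call, and 1 higher call without AMP replicate 3, whose summed endothelial level of 117.3 CPM exceeded the 48.4 and 56.0 CPM of the other AMP libraries.

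Genes were ranked against AMP within the same limits, among characterised genes without overlap and at a mean log2 CPM of at least 2. Of these, the highest in ENPP1+ATP over AMP were Fosb, Ptgs2, Ccl2, Ccl7 and Atp8b1. Fosb stood at 2.76, 3.96 and 2.88 CPM in AMP and 10.1, 10.4 and 12.02 CPM in ENPP1+ATP (log2 fold change 1.76 ± 0.17 (SE), edgeR adjusted p = 1.5e-10, and 1.69 with edgeR adjusted p = 3.54e-09 without AMP replicate 3). Ptgs2, the inducible cyclooxygenase, stood at 4.48, 3.83 and 6.17 CPM in AMP and 13.52, 15.5 and 13.7 CPM in ENPP1+ATP (1.56 ± 0.16, edgeR adjusted p = 7.35e-09, and 1.77 without the replicate). Ccl2 stood at 12.96, 10.4 and 11.9 CPM in AMP (1.43 ± 0.14, edgeR adjusted p = 2.6e-07, and 1.44 without it), so that it was higher in ENPP1+ATP than in vehicle, ATP or AMP. These genes were drawn from the 25.3% of all genes whose groups did not overlap, so that their separation is no further result. Lowest were Col11a1, Cacna1s, Cilp, Cntn2 and Svep1, with Col11a1 at 30.6, 30.1 and 26.2 CPM in AMP and 9.16, 10.3 and 10.7 CPM in ENPP1+ATP (-1.53 ± 0.09, edgeR adjusted p = 7.99e-17, and -1.59 without the replicate) and Svep1, a large matrix protein, at 69.5, 73.7 and 64.9 and 31.8, 27.5 and 33.2 CPM (-1.17 ± 0.085, edgeR adjusted p = 4.97e-09, and -1.22 without it). Nt5e, lower in ENPP1+ATP than in vehicle, was higher there than in ATP, at 3.47, 4.51 and 6.11 CPM in ATP (0.66 ± 0.18, edgeR adjusted p = 0.00565). In AMP it stood at 5.66, 4.49 and 3.44 CPM (0.71 ± 0.18, edgeR adjusted p = 0.00959), and the call was lost without AMP replicate 3 (0.54, edgeR adjusted p = 0.0649). Enpp1 did not pass the threshold against either medium (-0.15 ± 0.062, edgeR adjusted p = 0.0752 and 0.055 ± 0.063, edgeR adjusted p = 0.688). These comparisons share the ENPP1+ATP libraries, those with vehicle share the vehicle libraries, and the values of each stand beside one another without a test between them.

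**Figure D5:**
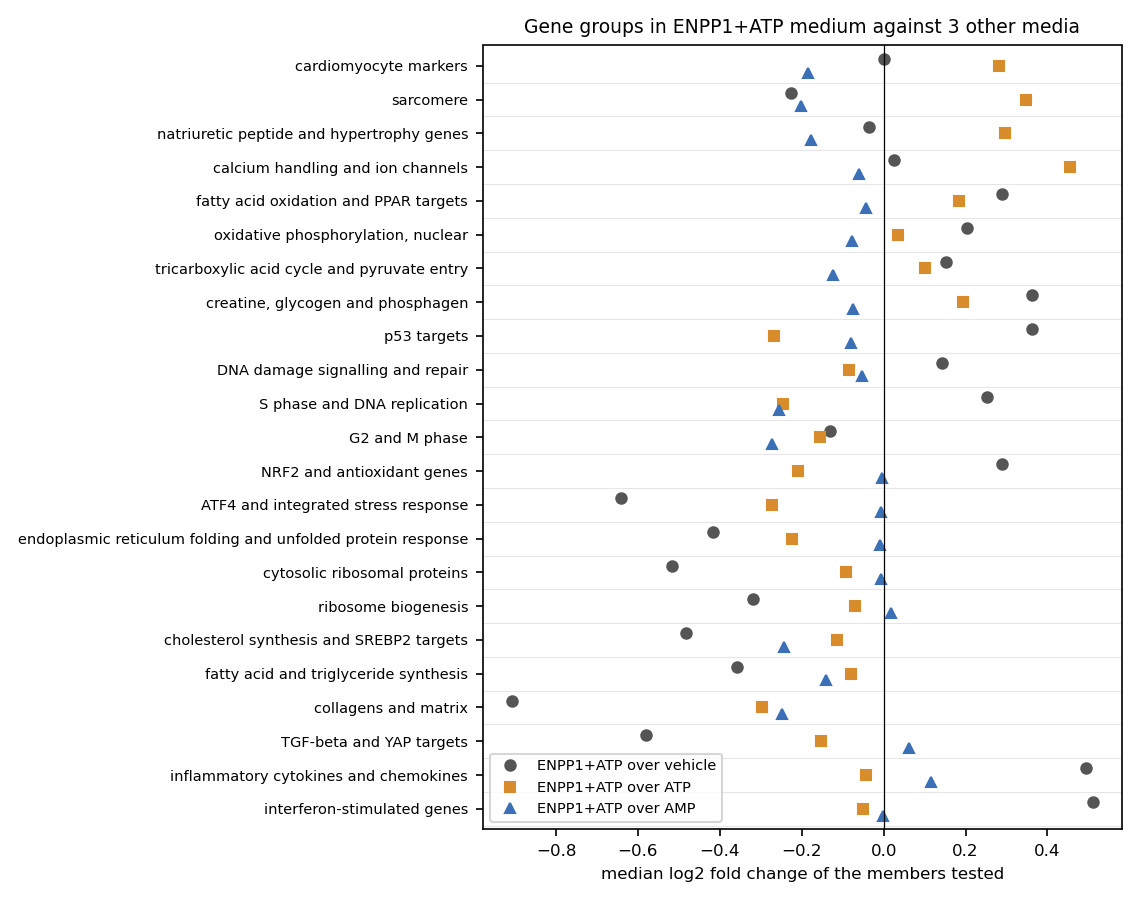
Median log2 fold change (horizontal) of the tested members of 23 gene lists (rows) for ENPP1+ATP over vehicle (circles), over ATP (squares) and over AMP (triangles), all of which share the 3 ENPP1+ATP libraries. Over AMP the medians lie between -0.272 and 0.115, and collagens and matrix lie at -0.908 over vehicle, the farthest from 0.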

How the data were processed

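The authors deposited raw read counts per gene symbol for 15 NRVM libraries, 3 in each of vehicle, ENPP1, ATP, AMP and ENPP1+ATP medium. The submitters' processing notes name STAR 2.5.3a and the rat build rn6, among others, while the counting step, the annotation and strandedness are not given in the sources used here. Reads of overlapping genes, and of near-identical copies (ribosomal protein, Hspa1b, Ifit and Mx genes), may therefore be misassigned. All 15 columns were matched to samples by title, and 0 were not used.

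Genes were kept with filterByExpr, scaled with TMM factors, and tested with the quasi-likelihood F test of edgeR 4.0.16 (limma 3.58.1, R 4.3.3) in a robust fit with 1 mean per medium, with Benjamini-Hochberg adjustment over all 13461 genes and a threshold of 0.05. No test for these counts is given in the sources used here. A CPM is a count divided by the TMM-scaled library size, and a log2 CPM uses a prior count of 2. That prior count was not set for the log2 fold changes, which come from the fit, as do their SEs. The fit shares 1 estimate of spread among the 5 media. The procedure was tested on simulated counts, and since the outcome of that test is not given here, no conclusion is drawn from it.

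The members and the 48 gene lists were chosen with earlier results of these data known, and support no independent test. Of 1710 list entries, 1598 were in the table and 1498 were tested. The text names the 12 highest and 12 lowest genes, and the 5 highest and lowest against ATP and AMP. These were taken among characterised genes whose groups did not overlap and whose mean log2 CPM reached 2. Without the limits on overlap and level, the text also names up to 4 called members of each list by size (2 if none was called), genes of the study and defining markers. Members named after their values were seen are given as such. Other scalings, filters, DESeq2 1.42.0, a non-robust fit, fewer libraries and a replicate block were the alternatives, and the fit of gene lists without AMP replicate 3 was added after seeing the data. No sequence or coordinate of a rat gene is given, since a genome of the build was not used here, and a few named genes are not reported here.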

Additional observations from a re-analysis of the deposited data

How the results depend on the processing

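The number of genes past the threshold between ENPP1+ATP and vehicle, 7538, lay between 6862 (DESeq2) and 7571 (libraries of the 2 groups alone) over all alternatives, and between 6892 and 7048 when 1 library was left out. For ENPP1+ATP against ATP it was 3708, with 3000 to 3383 without 1 library and 3184 with DESeq2, and for ENPP1+ATP against AMP 1300, with 941 to 1217 without 1 library and 1102 with DESeq2. The replicate block gave 7524, 3750 and 1372, and the numbers do not pair the libraries: deviations of ENPP1+ATP and vehicle libraries of the same number correlated at 0.016, 0.062 and 0.012. Of the 257 genes named by the rule, 224 were called, 0 changed direction, 17 lost the call in at least 1 fit without a library and 8 in another setting, and 7 gained one. Without AMP replicate 3, called members of 6 lists against AMP moved by over 1.5 times, from 2 to 1 (endothelial), 1 to 0 (purinergic), 1 to 2 (interferon), 8 to 15 (oxidative phosphorylation), 1 to 0 (ribosome biogenesis) and 5 to 1 (Wnt and Notch), and the cause was not tested. Depth of 13481389 reads or more limits genes near 1 CPM, and with 3 libraries a group the spread of single genes rests on the other media.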
